A study of Mus musculus with 12 samples.

Results

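Eda2r, a receptor of the tumour necrosis factor (TNF) receptor family, was followed with 8 related genes in the dorsal telencephalon (pallium) of mouse embryos at E13.5. The 9 genes are Eda2r and its ligand gene Eda, the death-domain receptor genes Fas, Tnfrsf10b, Tnfrsf1a, Tnfrsf21 and Ngfr, the adaptor gene Fadd and the protease gene Casp8. They were taken by symbol, and all 9 were among the 54735 genes of the tables. Eda2r was chosen by its measured TPM, which rose in the Rnu11-deleted pallium and was low again when Trp53 was deleted too, so its differences between the groups are given as a description, with no test. The other 8 were chosen for what they do, with earlier results of these data known.

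Rnu11 encodes the U11 small nuclear RNA, which recognises the 5′ splice site of minor introns, and Trp53 encodes the transcription factor p53. Each of the 3 groups held 4 embryos, and RNA of each pallium was sequenced after a stranded total RNA preparation. All embryos were of strain C57/Bl6 and carried Emx1-Cre, which recombines floxed alleles in pallial progenitors and hence in their descendants. Microglia, vessel cells and mesenchyme in the same tissue arise outside that lineage. The control genotype was Rnu11wt/flx::Trp53wt/wt, so the controls also lose 1 Rnu11 allele in Emx1-Cre cells. The Rnu11 conditional knockout (cKO) was Rnu11flx/flx::Trp53wt/wt and the double knockout (dKO) was Rnu11flx/flx::Trp53flx/flx. The study asked, per its title, how far loss of p53 reverses the microcephaly caused by impaired minor intron splicing.

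Death receptors are cell surface proteins that carry a death domain on the inside of the membrane. When bound by a ligand such as Fas ligand, TRAIL or TNF, they gather adaptors such as FADD, which in turn brings caspase-8 molecules together so that they activate each other and start apoptosis. EDA2R, also called XEDAR, binds the A2 form of ectodysplasin A, has no death domain, and signals through TRAF adaptors; Eda2r, Fas and Tnfrsf10b are known p53 target genes.

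The start of Eda2r is shown here beside that of Fas, the other p53 target with a matched promoter. RefSeq promoter sequences on GRCm38.p6 were matched for 8 of the 9 genes. The 250 bases before the annotated start are printed 5′ to 3′ on the strand of the gene, at chrX:97377210-97377459 on the minus strand for Eda2r and at chr19:34290409-34290658 on the plus strand for Fas, with the letters TATAAA in capitals.
Eda2r: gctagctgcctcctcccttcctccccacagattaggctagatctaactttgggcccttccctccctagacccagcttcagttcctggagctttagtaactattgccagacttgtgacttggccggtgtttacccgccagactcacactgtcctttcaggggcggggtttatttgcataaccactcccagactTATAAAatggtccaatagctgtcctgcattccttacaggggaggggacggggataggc
Fas: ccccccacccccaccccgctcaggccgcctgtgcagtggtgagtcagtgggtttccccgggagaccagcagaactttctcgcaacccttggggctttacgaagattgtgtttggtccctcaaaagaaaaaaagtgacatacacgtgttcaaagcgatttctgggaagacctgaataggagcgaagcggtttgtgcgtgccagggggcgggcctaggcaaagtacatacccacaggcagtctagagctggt
The window of Eda2r held TATAAA with its first base at position -58 from the start, and the windows of the other 7 matched genes held it on neither strand. Of all 32851 promoters in the table, 12.37% held TATAAA on either strand in a window of the same length. A p53 decamer, the repeat unit of the p53 response element, was found in the window of 0 of the 8 matched genes and in 7.13% of all promoters. A match describes letters in this window only, and p53 elements often lie in introns or farther upstream.

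The genes lie on 8 chromosomes of GRCm38 (mm10) and are annotated as protein coding. Eda2r spans chrX:97333840-97377216 on the minus strand, and Eda spans chrX:99975606-100400762 on the plus strand, 2598389 bases away. Fas lies at chr19:34290666-34327772, Tnfrsf10b at chr14:69767472-69784411, Tnfrsf1a at chr6:125349362-125362484 and Tnfrsf21 at chr17:43016555-43089189, each on the plus strand. Ngfr lies at chr11:95568818-95587735 and Fadd at chr7:144577318-144582463, both on the minus strand, and Casp8 at chr1:58795374-58847503 on the plus strand. Exons of Fadd share 239 bases with Faddos on the opposite strand. Whether strand was used in counting is not given in the sources used here, so reads of the pair may not have been told apart and the Fadd level is uncertain.

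Levels are in TPM, transcript abundances scaled by length so that each library sums to 1000000, so the number of reads behind a value is unknown. Rnu11 was at 521 to 724 TPM in controls, 115 to 159 in cKO and 142 to 199 in dKO, and Trp53 was at 2.63 to 6.37, 3.92 to 4.83 and 0.92 to 1.49 TPM, respectively. Markers of pallial progenitors (Emx1, Pax6 and others) summed to 258 to 296 TPM in controls. They reached 297 to 352 TPM in cKO and 276 to 284 in dKO. Fabp7 and Vim, with means of 109 and 85.8 TPM in controls, made up most of that sum. Those of pallial neurons summed to 210 to 236 TPM in controls, 247 to 316 in cKO and 141 to 209 in dKO. Both main cell types of the labelled tissue were thus present. Over the 11764 genes that averaged 1 TPM or more, the deposited values gave a median log2 difference of 0.25 between cKO and control and of -0.26 between dKO and cKO. Protein-coding genes outside the mitochondrial genome held 14.4% to 20.0% of the TPM in a library, so a gene's TPM also moves with the other RNA beside it. For this reason each change is also given after median-ratio rescaling, which multiplies each library by 1 factor (0.763 to 1.14) so that the typical gene keeps its level, a setting chosen after the data were seen.

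Eda2r stood at 0.714, 0.953, 0.770 and 0.902 TPM in the 4 control embryos. In the cKO embryos it was 10.9, 11.2, 11.4 and 12.8 TPM. The dKO embryos had 0.420, 0.327, 0.739 and 0.646 TPM. All 4 cKO embryos lay far above every other embryo, while the ranges of control and dKO met, with dKO embryo 3 above control embryo 1. The mean rose from 0.835 ± 0.111 (SD, n = 4) in controls to 11.6 ± 0.853 TPM (n = 4) in cKO, 13.9 times the control mean. In dKO it was 0.533 ± 0.192 TPM (n = 4), which is 4.60% of the cKO mean and 63.8% of the control mean. On the scale of log2(TPM + 1) Eda2r in cKO stood 2.78 above control, and dKO differed by -0.27 from control and by -3.04 from cKO. After median-ratio rescaling they were 2.54, -0.27 and -2.81. In whole tissue, more cells of a type and more RNA per cell cannot be told apart, and markers of microglia and vessel cells were also higher in cKO, at the levels given with the marker lists. In controls, 10109 of the 21938 protein-coding genes outside the mitochondrial genome had a higher mean TPM than Eda2r, and in cKO 2779 did.

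**Figure D1:**
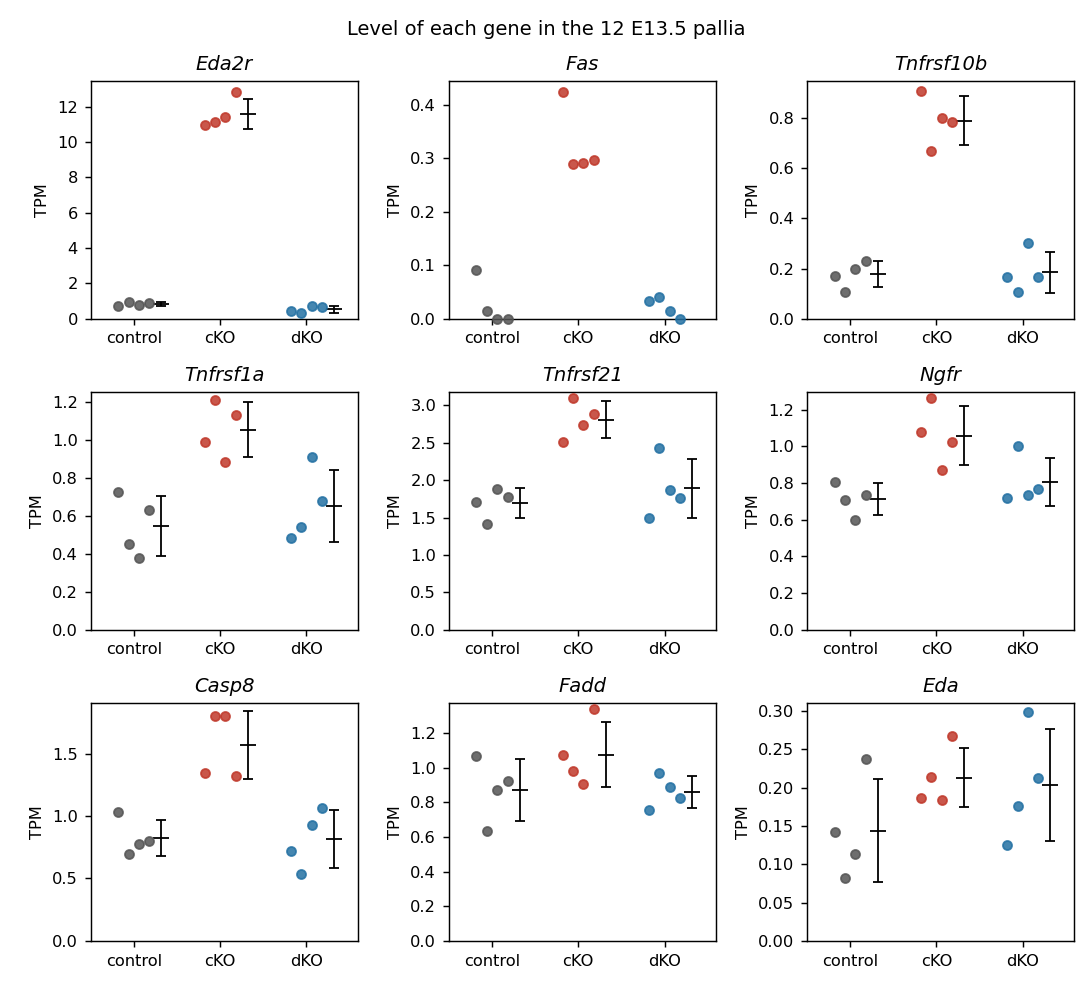
TPM of each gene in the 12 pallia, with 1 point per embryo in control, cKO and dKO and, beside the points, the mean and SD of 4 embryos (left out for Fas, which is listed at 0 in 3 embryos). Each panel has its own linear axis from 0, and Eda2r reaches 10.9 to 12.8 TPM in cKO against 0.953 TPM at most in controls.

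Eda, which encodes the ligand ectodysplasin A, was low in every group and showed no such difference. Its levels were 0.142, 0.0825, 0.113 and 0.238 TPM in controls, 0.187, 0.214, 0.184 and 0.267 in cKO, and 0.125, 0.177, 0.299 and 0.213 in dKO. The 3 ranges overlapped. The log2 difference for cKO against control was 0.09 (adjusted p = 0.357) and that for dKO against cKO was -0.01 (adjusted p = 0.907). The adjusted p-values here and below are from limma with Benjamini-Hochberg adjustment over all genes, 39624 without a filter or the 11764 that averaged 1 TPM or more. TPM of a gene do not separate its A1 and A2 forms, so the form that EDA2R binds was not measured.

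Of the 5 death-domain receptors, Fas and Tnfrsf10b were the 2 called higher in cKO both in the deposited values and after median-ratio rescaling. After that rescaling the others also stood above control, uncalled, by 0.28 (Tnfrsf21), 0.27 (Tnfrsf1a) and 0.12 (Ngfr) on the log2 scale. Fas, the receptor of Fas ligand, was at 0.0908 and 0.0141 TPM in control embryos 1 and 2 and listed at 0 in controls 3 and 4. The cKO embryos had 0.423, 0.289, 0.291 and 0.297 TPM, and the dKO embryos 0.0326, 0.0397, 0.0147 and 0, the last listed at 0. Every cKO embryo was above every control and dKO embryo, at levels that stayed under 0.5 TPM. Fas rose in cKO against control by 0.37 on the log2 scale (SE 0.0391, adjusted p = 4e-04, limma without the filter) and fell by 0.37 in dKO against cKO (adjusted p = 0.000422). After median-ratio rescaling these were 0.32 (adjusted p = 0.00211) and -0.32 (adjusted p = 0.00342). Because the levels lie far under the pseudocount of 1 TPM, these log2 values understate the ratio of the levels. Centring all genes by 1 log2 shift per library ended both calls of Fas (adjusted p = 0.192 and 0.243).

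Tnfrsf10b, the mouse receptor of TRAIL, was at 0.169, 0.108, 0.200 and 0.230 TPM in controls. It was at 0.909, 0.671, 0.800 and 0.785 TPM in cKO and at 0.167, 0.106, 0.301 and 0.167 TPM in dKO. The cKO embryos were again apart from all others, and the dKO values spanned the control range. The cKO mean of 0.791 ± 0.0972 TPM (SD, n = 4) was 4.47 times the control mean of 0.177 ± 0.0521 (n = 4), and the dKO mean of 0.185 ± 0.0824 (n = 4) was 23.4% of the cKO mean. Tnfrsf10b rose by 0.61 in cKO against control (SE 0.0705, adjusted p = 0.000678, limma without the filter) and fell by 0.60 in dKO against cKO (adjusted p = 8e-04). The changes after median-ratio rescaling were 0.50 (adjusted p = 0.00525) and -0.49 (adjusted p = 0.00988).

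Tnfrsf21, also called death receptor 6, had the highest TPM of the 9 genes in controls. Its levels were 1.71, 1.42, 1.88 and 1.78 TPM in controls, 2.51, 3.09, 2.74 and 2.89 in cKO, and 1.50, 2.43, 1.87 and 1.76 in dKO. The cKO embryos lay above all others, with dKO embryo 2 the nearest. Tnfrsf21 rose by 0.50 on the log2 scale in cKO against control (SE 0.103, adjusted p = 0.00479, limma) and fell by 0.40 in dKO against cKO (adjusted p = 0.0103). After median-ratio rescaling the changes were 0.28 (adjusted p = 0.0774) and -0.17 (adjusted p = 0.261), so neither passed.

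Tnfrsf1a, TNF receptor 1, was at 0.723, 0.449, 0.378 and 0.631 TPM in controls, 0.987, 1.21, 0.883 and 1.13 in cKO, and 0.483, 0.540, 0.907 and 0.680 in dKO. All cKO embryos were above all controls, but dKO embryo 3 was above cKO embryo 3. The cKO mean was 1.93 times the control mean, a rise of 0.41 on the log2 scale (SE 0.102, adjusted p = 0.0258, limma without the filter). The call was lost when control embryo 2 or 3 or cKO embryo 2 or 4 was left out (adjusted p = 0.0691, 0.0741, 0.0701 and 0.0631, respectively). It was also lost after median-ratio rescaling (0.27, adjusted p = 0.202), protein-coding rescaling (0.34, adjusted p = 0.0989) and centring (adjusted p = 0.172), and with a replicate block (adjusted p = 0.0709). In dKO against cKO the log2 difference was -0.32 (adjusted p = 0.0594).

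Ngfr encodes the p75 neurotrophin receptor, which binds neurotrophins and their precursors. It was at 0.806, 0.706, 0.596 and 0.734 TPM in controls, 1.08, 1.26, 0.872 and 1.02 in cKO, and 0.720, 1.00, 0.736 and 0.767 in dKO. The cKO embryos lay above all controls, by little in cKO embryo 3, and overlapped dKO. The log2 difference for cKO against control was 0.27 (SE 0.0798, adjusted p = 0.0539, limma without the filter) and did not pass; it passed without cKO embryo 3 (adjusted p = 0.0307) or dKO embryo 2 (adjusted p = 0.0406). For dKO against cKO it was -0.19 (adjusted p = 0.146).

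Downstream of the receptors, Casp8 rose in cKO, while Fadd passed no test. Casp8, the initiator caspase, was at 1.03, 0.699, 0.775 and 0.797 TPM in controls, 1.35, 1.80, 1.80 and 1.32 in cKO, and 0.721, 0.536, 0.928 and 1.06 in dKO. The cKO embryos were above all others, and control and dKO overlapped. The mean in cKO was 1.57 ± 0.271 TPM (SD, n = 4), 1.90 times the control mean of 0.826 ± 0.144 (n = 4), and dKO was at 51.9% of it. Because it averaged 1 TPM or more over all libraries through its cKO level only, Casp8 was read from the fit without the filter. It rose by 0.49 in cKO against control (SE 0.109, adjusted p = 0.0172, limma) and fell by 0.51 in dKO against cKO (adjusted p = 0.0118). After median-ratio rescaling neither change passed (0.32, adjusted p = 0.214, and -0.33, adjusted p = 0.179).

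Fadd, the adaptor between death domains and caspase-8, was at 1.07, 0.636, 0.869 and 0.920 TPM in controls, 1.07, 0.981, 0.908 and 1.34 in cKO, and 0.758, 0.972, 0.888 and 0.825 in dKO. All 3 groups overlapped. The log2 difference between cKO and control was 0.15 (adjusted p = 0.323, limma without the filter). That between dKO and control was -0.01, and that between dKO and cKO -0.15 (adjusted p = 0.295).

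**Figure D2:**
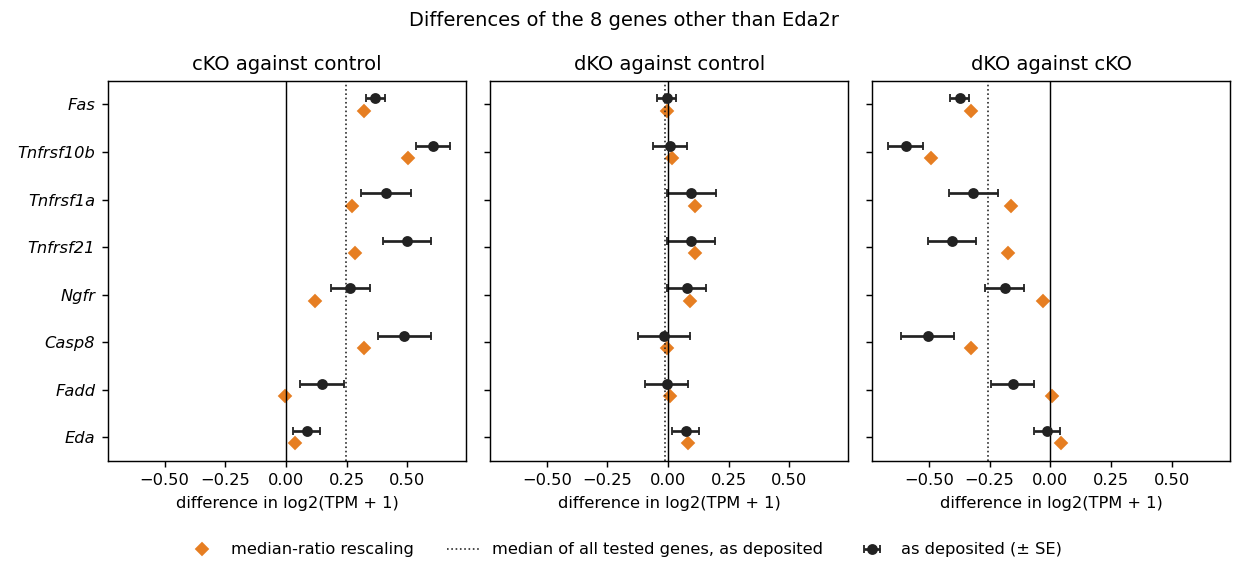
Difference of the 8 genes other than Eda2r on the log2(TPM + 1) scale (horizontal axis) in the 3 comparisons, as deposited (circles, with bars of 1 standard error) and after median-ratio rescaling (diamonds). The dotted line is the median of all tested genes. Fas and Tnfrsf10b stand at 0.37 and 0.61 in cKO against control, and all 8 circles lie within 0.10 of 0 in dKO against control.

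Counts over the 8 genes other than Eda2r are read against all genes, because many genes moved between these groups. Only Tnfrsf21 and Casp8 of the 8 passed the filter of an average of 1 TPM or more, Casp8 through its cKO level alone, so the calls of these 2 with the filter are not read as a count. Of all 11764 genes tested with that filter, 34.3% were called higher in cKO than in control and 38.8% lower in dKO than in cKO. Without the filter, 5 of the 8 (Fas, Tnfrsf10b, Tnfrsf1a, Tnfrsf21 and Casp8) were higher in cKO, against 11.0% of 39624 genes. The count was 3 when control embryo 2 or cKO embryo 2 was left out. In dKO against cKO, 4 of the 8 were lower (Fas, Tnfrsf10b, Tnfrsf21 and Casp8), against 14.5%. The 39624 genes include many near 0 TPM in every library, which can hardly be called.

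No gene of the 8 was called in dKO against control by limma, where 5.19% of genes were called in either direction with the filter and 1.35% without it, and 0 of the 8 reached an unadjusted p under 0.05. Without a test, all cKO embryos were above all controls for 6 of the 8 (those 5 and Ngfr), against 17.4% of all genes and 32.7% of those that averaged 1 TPM or more. All dKO embryos were below all cKO embryos for 4 of the 8, against 17.2% and 32.8%. Protein-coding rescaling gave each library an equal sum of protein-coding genes outside the mitochondrial genome. After it, and without the filter, Fas and Tnfrsf10b alone of the 8 were called in cKO against control (3.41% of genes) and in dKO against cKO (3.11%). With the filter, Tnfrsf21 also passed that rescaling in cKO against control (0.39, adjusted p = 0.0271). Without the filter, Fas and Tnfrsf10b were also the 2 called after median-ratio rescaling, against 1.50% and 1.67% of genes. The median log2 difference of the 8 genes was 0.39 between cKO and control, beside 0.25 over the genes that averaged 1 TPM or more and 0.04 over all 39624, most of which lie too near 0 TPM to move on this scale. It was 0.04 between dKO and control, and -0.35 between dKO and cKO, beside -0.26 and -0.04 over the same sets of genes. After median-ratio rescaling the medians of the 8 were 0.28 between cKO and control and -0.17 between dKO and cKO. The comparisons with many calls both use the cKO embryos.

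The order of the levels in TPM changed with the genotype. In controls Tnfrsf21 was highest and apart from the rest, at 1.70 ± 0.199 TPM (SD, n = 4), followed by Fadd, Eda2r, Casp8 and Ngfr, whose ranges overlapped. Tnfrsf1a came next, its range overlapping that of Ngfr, then Tnfrsf10b and Eda, which overlapped each other, and Fas last. In cKO Eda2r was highest and Tnfrsf21 next at 2.81 ± 0.246 TPM (n = 4), both clear of their neighbours. Casp8, Fadd, Ngfr, Tnfrsf1a and Tnfrsf10b followed, each range overlapping the next, and Fas and Eda were lowest and apart. In dKO Tnfrsf21 was again highest, at 1.89 ± 0.393 TPM (n = 4), and Fadd, Casp8, Ngfr, Tnfrsf1a and Eda2r overlapped as neighbours in that order, ahead of Eda, Tnfrsf10b and Fas. Of the TPM summed over Eda2r and the 5 death-domain receptors, Eda2r made up 21.1% ± 3.80 (SD, n = 4) in controls, 65.7% ± 2.11 in cKO and 13.1% ± 4.14 in dKO, shares that follow from the levels that chose it. The other 5 receptors summed to 3.15 ± 0.359 TPM in controls, 6.03 ± 0.394 in cKO and 3.56 ± 0.534 in dKO (mean ± SD of 4 embryos).

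The genes with a pattern most like that of Eda2r were found by Pearson correlation of log2(TPM + 1) over the 12 embryos, among genes averaging 1 TPM or more. The embryos fall into a high cKO cluster and a low cluster of the rest, so the correlation mostly measures that split and is a description. The leading gene was Ccng1, which encodes cyclin G1 (r = 0.9985), with 8.28 ± 0.638 TPM in controls, 47.7 ± 4.83 in cKO and 6.95 ± 0.748 in dKO (mean ± SD of 4 embryos). Next came Inka2 (r = 0.9945), Ano3 (0.99), an anoctamin, and Polk (0.9863), which encodes the translesion DNA polymerase kappa. The others were the long noncoding RNA Gm13067 (0.9858), Dcxr (0.9837), Cpt1c (0.9829), Aen (0.9818), which encodes a nuclease, the long noncoding RNA Pvt1 (0.981) and Dcaf4 (0.9808). Inka2, Ano3, Gm13067 and Pvt1 averaged 1 TPM or more through their cKO level only, with control and dKO means under 1 TPM. Their cKO means were 2.265, 6.868, 3.353 and 2.456 TPM, respectively. For genes this low in controls and dKO, the filter keeps only those high in cKO, the pattern that was searched for. Among the 8 related genes, Tnfrsf10b had the highest correlation with Eda2r (r = 0.971), followed by Fas (0.949) and Casp8 (0.877), and Eda had the lowest (0.321).

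**Figure D3:**
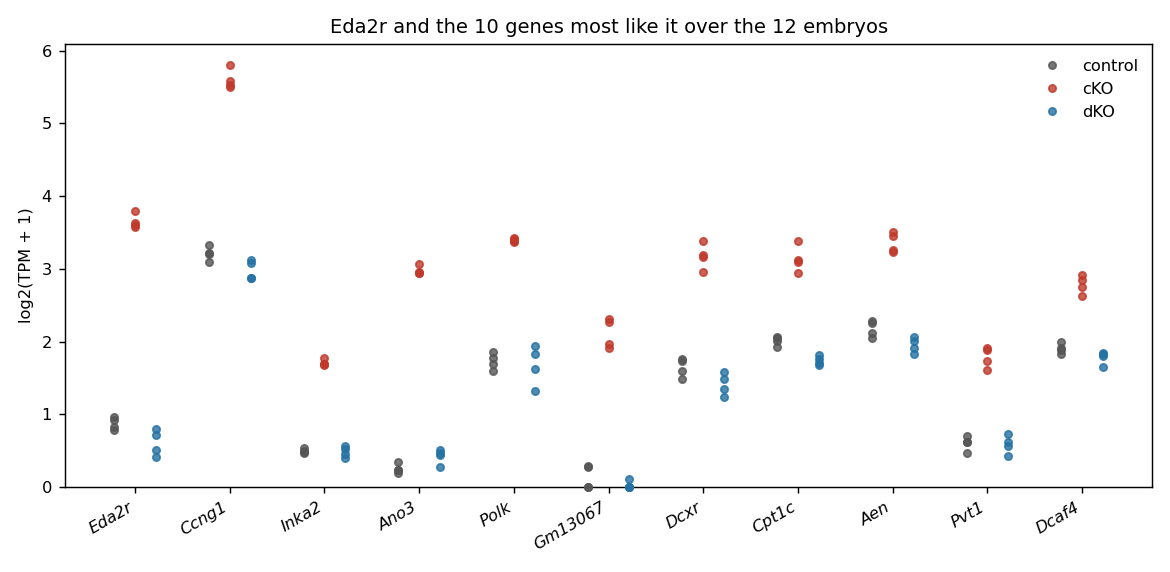
Level on the log2(TPM + 1) scale (vertical axis) of Eda2r and the 10 genes whose values over the 12 embryos correlated best with it, with 1 point per embryo by group. The correlated genes were taken among those averaging 1 TPM or more. For Eda2r and Ccng1 the 4 cKO embryos lie above the other 8, and control and dKO embryos lie close together.

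The other genes of the pathway were taken as whole lists. Of 20 TNF receptor genes without a death domain, 3 averaged 1 TPM or more. Of those 3, 1 rose in cKO and was lower in dKO than in cKO, near the 34.3% and 38.8% of all genes. That gene was Ltbr, the lymphotoxin beta receptor, at 1.50 ± 0.270 TPM in controls, 2.96 ± 0.401 in cKO and 2.07 ± 0.187 in dKO (mean ± SD of 4 embryos). Ltbr rose by 0.66 in cKO (adjusted p = 0.000956, limma) and changed by -0.36 in dKO against cKO (adjusted p = 0.0139). The rise of Ltbr also passed after median-ratio rescaling (0.45, adjusted p = 0.00659), and the fall did not. In dKO against control Ltbr was not called as deposited (0.30, adjusted p = 0.105, limma) but was after that rescaling (0.33, adjusted p = 0.0326). Without the filter, 3 of the 20 were higher in cKO than in control (Ltbr, Tnfrsf11a and Tnfrsf1b), against 11.0% of all genes. Tnfrsf1b, TNF receptor 2, was at 0.0993 ± 0.0390, 0.451 ± 0.0672 and 0.345 ± 0.0389 TPM in control, cKO and dKO (mean ± SD of 4 embryos), and was also higher in dKO than in control (0.29, adjusted p = 0.0273, limma). In dKO against cKO, Ltbr and Relt were lower, 2 of 20 against 14.5% of all genes; Tnfrsf11a, Tnfrsf1b and Relt were named after their values were seen. Neither of the other 2 death-domain receptor genes, Tnfrsf25 and Edar, averaged 1 TPM or was called without the filter. Of 9 ligand genes none averaged 1 TPM. Without the filter Tnf alone was called, 1 of 9 against 11.0% of all genes higher in cKO than in control (adjusted p = 0.000589, limma) and 14.5% lower in dKO than in cKO (adjusted p = 0.00218). Tnf, named after its values were seen, was listed at 0 in all 4 controls, at 0.0948 to 0.152 TPM in cKO and at 0 to 0.0459 TPM in dKO.

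Of 19 genes of the death receptor complex and its inhibitors, 14 were tested, and in cKO against control 8 rose and 1 fell, with a median log2 change of 0.31 beside 0.25 over all genes, 34.3% of which were called higher. Cflar, which encodes the caspase-8 inhibitor c-FLIP, was at 1.61 ± 0.238 TPM in controls, 3.30 ± 0.401 in cKO and 2.68 ± 0.366 in dKO (mean ± SD of 4 embryos). Cflar rose in cKO (0.72, adjusted p = 6e-04, limma) and in dKO (0.49, adjusted p = 0.014) against control, and both rises passed after median-ratio rescaling (adjusted p = 0.00613 and 0.00503). Cflar was thus higher than control in both genotypes, while Casp8 was called higher in cKO and not in dKO; the difference between the genes was not tested. The gene that fell was Dap3, a subunit of the mitochondrial ribosome that was first described through cell death, at 23.7 ± 1.14, 13.4 ± 1.84 and 9.69 ± 0.578 TPM (mean ± SD of 4 embryos). Dap3 fell by 0.79 in cKO (adjusted p = 0.000201, limma) and by 1.21 in dKO (adjusted p = 2.45e-05) against control. Tnfaip8, a TNF-induced gene, rose in cKO by 0.47 (adjusted p = 0.015).

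In dKO against cKO, 8 of those 14 genes were lower and 0 higher, where 38.8% of all genes were lower. Xiap, a caspase inhibitor, was at 4.16 ± 0.167 TPM in controls, 4.88 ± 0.337 in cKO and 3.23 ± 0.369 in dKO (mean ± SD of 4 embryos), and changed by -0.48 from cKO to dKO (adjusted p = 0.00122, limma). After median-ratio rescaling the list had 1 gene higher (Cflar) and 1 lower (Dap3) in cKO against control, 1 higher and 2 lower in dKO against control, and 0 in either direction in dKO against cKO. Of all 11764 genes, 466 were then called higher and 383 lower in cKO against control.

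Of 24 TRAF and NF-kB genes, 15 were tested, and 5 rose in cKO, near the 34.3% of all genes. Among the 5 were the kinase genes Map3k7 (0.44, adjusted p = 0.0091, limma) and Ikbkb (0.41, adjusted p = 0.0151) and the adaptor gene Traf4 (0.37, adjusted p = 0.026). In dKO against cKO 6 of the 15 were lower, near the 38.8% of all genes, led by the kinase gene Chuk (-0.64, adjusted p = 0.00299). The median of this list in cKO against control was 0.25, equal to that over all genes, and no gene of it was called in any comparison after median-ratio rescaling. Of 12 partners of the p75 receptor, 9 were tested, 3 rose in cKO and 3 were lower in dKO than in cKO, near the same shares of all genes. Ntrk2, the receptor of BDNF, was at 3.15 ± 0.527, 5.52 ± 0.539 and 3.26 ± 0.668 TPM (mean ± SD of 4 embryos), rising by 0.66 in cKO (adjusted p = 0.00275, limma) and changing by -0.63 in dKO against cKO (adjusted p = 0.00293). The difference of Lingo1, which averaged 1 TPM through its cKO level only, was 0.44 in cKO against control and passed with the filter (adjusted p = 0.0483) but not without it (adjusted p = 0.0941). Sort1 changed by -0.36 in dKO against cKO (adjusted p = 0.0164). After median-ratio rescaling no gene of this list was called either.

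**Figure D4:**
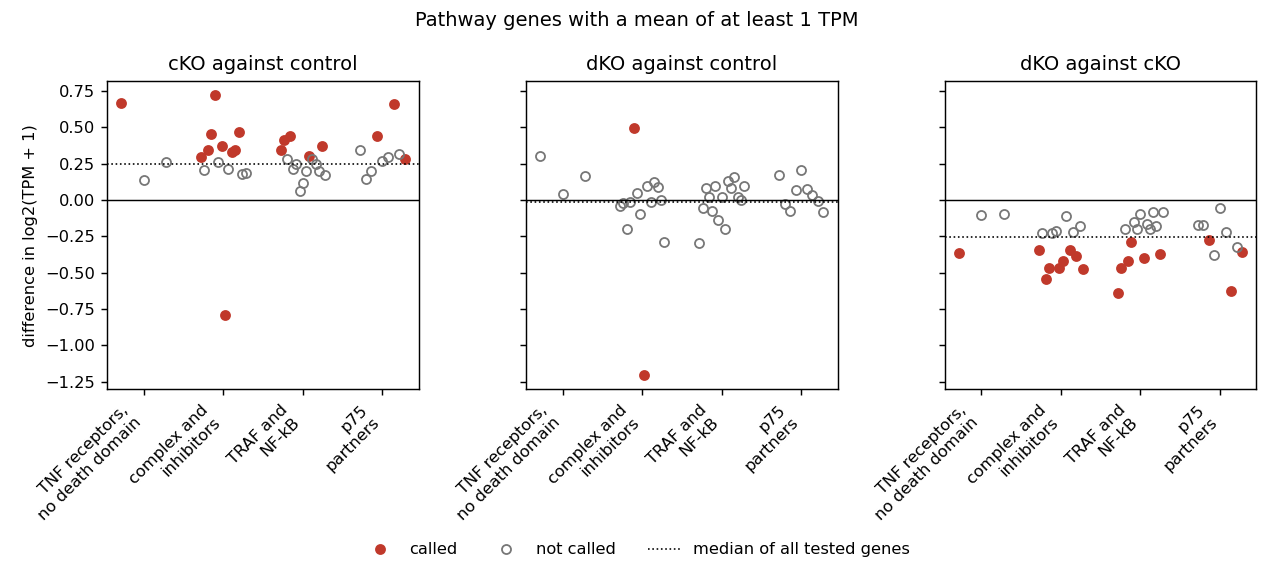
Change on the log2(TPM + 1) scale of the genes in each pathway list that averaged 1 TPM or more, in the 3 comparisons, with 1 point per gene, filled where it was called, and a dotted line at the median of all tested genes. Dap3 stands apart at -0.79 and -1.21 against control, and Cflar and Ltbr lead the rises in cKO at 0.72 and 0.66.

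Markers of other cell types were also higher in cKO, where 34.3% of all genes that averaged 1 TPM or more were called higher. In dKO against cKO, 38.8% of those genes were called lower. After median-ratio rescaling, 466 of the 11764 were called higher in cKO than in control and 383 lower. The 13 markers of microglia and macrophages summed to 16.9 to 21.3 TPM in controls, 66.2 to 93.4 in cKO and 21 to 30.8 in dKO. Of the 12 tested, 11 were higher in cKO than in control, 0 were called in dKO against control and 11 were lower in dKO than in cKO. The 11 rises also passed after median-ratio rescaling, and 9 of the 11 falls did. The 9 endothelial markers summed to 12 to 15.8, 23.1 to 31.2 and 14.4 to 23.5 TPM, with 8 of 8 tested higher in cKO. The 6 pericyte markers summed to 5.72 to 7.49, 10.1 to 14.3 and 7.16 to 10.1 TPM, with 3 of 3 tested higher. The 9 mesenchyme markers, 24 to 41.6 TPM in controls and 44.1 to 52.5 in cKO, had 4 of 5 higher but stayed at 38.1 to 55.6 TPM in dKO. After median-ratio rescaling 3 of 8 endothelial, 1 of 3 pericyte and 1 of 5 mesenchyme markers were still higher in cKO. The microglial sum was thus highest in cKO, as were the means of Eda2r, Fas, Tnfrsf10b, Tnfrsf1a, Tnfrsf21, Ngfr and Casp8, and its part in their levels was not tested.

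Markers that lie within or beside the pallial lineage are read beside the same 34.3% and 38.8% of all genes. Counts after median-ratio rescaling in cKO against control are read beside 466 higher and 383 lower of 11764 genes. Of 10 progenitor markers tested, 1 was higher (Fabp7) and 1 lower (Hes5) in cKO than in control. In the other comparisons 0 were called. After median-ratio rescaling 0 were higher and 3 lower in cKO than in control (Hes5, Emx1 and Sox2). Emx1 was then also lower in dKO than in control. Of the pallial neuron markers, whose summed ranges did not overlap between the groups, 3 of 9 tested were higher in cKO than in control. In dKO, 4 were lower than in cKO and 1 was lower than in control. The first 2 counts were near the shares of all genes. After median-ratio rescaling the 3 counts were 0, 2 and 2. The 8 Cajal-Retzius markers summed to 18.4 to 24.5 TPM in controls, 41.6 to 48.1 in cKO and 21.7 to 32.2 in dKO, with 3 of 5 tested higher in cKO, or 2 after median-ratio rescaling. The 10 markers of cortical hem and choroid plexus summed to 52.9 to 112, 101 to 276 and 80.3 to 314 TPM, with 6 of 8 higher in cKO, or 2 after that rescaling. The 10 markers of ventral telencephalon summed to 1.76 to 2.57 TPM in controls, 3.72 to 5.46 in cKO and 1.70 to 3.88 in dKO. The 1 tested, Dlx1, was higher in cKO than in control (adjusted p = 0.0244, limma) and lower in dKO than in cKO (adjusted p = 0.0307), and passed neither after median-ratio rescaling. The 6 markers of skin summed to 0.973 to 4.22 TPM over all libraries. Red blood cell markers were at 2050 to 3470 TPM with 0 of 8 called by limma in cKO against control. No marker of these lists was at 0 in every embryo of a group. The part of these cells in the levels of the 9 genes was not tested.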

How the data were processed

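Whole pallia of 12 embryos were sequenced after a stranded total RNA preparation, per the series' design text. The authors deposited 1 table of gene symbols and TPM per embryo. The unit was read from the values, which sum to 1000000, since the tables have no header. HISAT2 and mm10 are named in the submitters' processing notes; the quantifier, annotation and strand setting are not given in the sources used here. TPM keep no depth, so the precision of low values is unknown.

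Groups came from the labels. The genes and lists were chosen with earlier results of these data known. limma 3.58.1 in R 4.3.3 was fitted on log2(TPM + 1), 3 groups in one fit with an intensity trend, over 11764 genes that averaged 1 TPM or more, and calls were made at an adjusted p under 0.05 (Benjamini-Hochberg). Because 6 of the 8 genes other than Eda2r fall below that filter, and Casp8 passes it through 1 group only, their adjusted p-values are from the same fit on all 39624 genes above 0 in any library. The labels do not say whether embryos share a litter, and p-values measure the spread between these embryos. The steps were tested on simulated data.

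Named genes were all 9, up to 3 called genes with the largest change per list and comparison, the 10 most correlated with Eda2r, and Rnu11 and Trp53; some genes that the rule takes are not reported here. Gene types and positions came from GENCODE M21 (54183 of 54735 symbols matched), promoters from RefSeq. Alternatives were another pseudocount (0.1), no filter or a mean of at least 5 TPM, median-shift centring, protein-coding rescaling, the compared groups alone, a replicate block, each embryo left out and, chosen after seeing the data, median-ratio rescaling. Figures were drawn with matplotlib 3.10.9.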

Additional observations from a re-analysis of the deposited data

Results flagged for a closer look

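Within the groups of 4 embryos, 3 embryos stood away from the other members of their group: the gap to the nearest value was a larger share of the whole range than the 95% critical value allows for 4 samples. Fas in control embryo 1 was at 0.0908 TPM, a gap of 0.845 of the range, with the other controls at 0.0141 TPM or listed at 0. Fas in cKO embryo 1 was at 0.423 TPM, a gap of 0.942 of the range, with the other 3 between 0.289 and 0.297 TPM. Ngfr in dKO embryo 2 was at 1.00 TPM, a gap of 0.835 of the range, with the others between 0.720 and 0.767 TPM. Chance gives this in about 1 in 20 groups, or 1.35 of the 27 groups looked at, against 3 found.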

How the results depend on the processing

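With the filter, 34.3% of all genes were called higher in cKO than in control and 38.8% lower in dKO than in cKO. Casp8 passed the filter through its cKO level alone, so calls with it show the settings only and are not read as a count. Of the 8 genes other than Eda2r, the 2 tested with it (Tnfrsf21 and Casp8) were called in both comparisons. These counts became 0 and 0 after median-shift centring, 1 and 0 after protein-coding rescaling, 0 and 0 after median-ratio rescaling, 0 and 0 at a mean of at least 5 TPM (none of the 8 was tested), and 5 and 4 with no filter. Without the filter, the 5 calls in cKO against control became 2 after centring (Tnfrsf10b and Tnfrsf21) and 2 after each rescaling (Fas and Tnfrsf10b). They became 3 with a replicate block and 3 to 6 with 1 embryo left out. The 4 calls in dKO against cKO became 2 after centring (Tnfrsf10b lower and Eda higher) and 2 after each rescaling (Fas and Tnfrsf10b). With 1 embryo left out they were 3 to 5. In dKO against control 0 were called in each setting run. Median-shift centring subtracts 1 log2 amount from all genes, also from those at or near 0, so by construction it moves genes far below 1 TPM away from their own level; it ended the call of Fas in cKO against control (adjusted p = 0.192).

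Small differences changed sign. After centring, cKO against control was -0.163 for Eda and -0.101 for Fadd, dKO against control was 0.014 for Fas, 0.0134 for Fadd and 0.00256 for Casp8, and dKO against cKO was 0.256 for Eda (adjusted p = 0.00654), 0.0804 for Ngfr and 0.114 for Fadd. After protein-coding rescaling, dKO against control was 0.0285 for Fadd and 0.0164 for Casp8, and dKO against cKO was 0.0285 for Eda. After median-ratio rescaling, Fadd was -0.00216 in cKO against control, 0.00692 in dKO against control and 0.00908 in dKO against cKO, and Eda was 0.0437 in dKO against cKO. With 1 embryo left out, dKO against control ranged from -0.0177 to 0.0241 for Fas, -0.0369 to 0.0412 for Tnfrsf10b, -0.0696 to 0.0429 for Fadd and -0.0826 to 0.0595 for Casp8, and Eda in dKO against cKO from -0.0507 to 0.0186. The changes after centring follow from the single log2 amount that it subtracts from every gene of a library. The cause of the other changes was not tested.

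Over all genes with the filter, 4163, 610 and 4636 were called in cKO against control, dKO against control and dKO against cKO. Centring gave 786, 992 and 698, protein-coding rescaling 1539, 1080 and 1139, median-ratio rescaling 849, 1059 and 816, and a mean of at least 5 TPM 1900, 294 and 2220. Leaving out 1 embryo gave as few as 2468, 333 and 3082. Embryos with the same number did not deviate together (correlations -0.0954 to 0.0745, 2 of 12 best with their own number), and the replicate block gave 2979, 409 and 3608. For genes under 1 TPM the unknown depth limits what a difference can show.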
